A study of Mus musculus with 8 samples.

Results

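Complement genes other than those of C1q, 7 in number, were followed through tumor-infiltrating immune cells, namely C3, Cfb, Cfp, C4b, C2, C3ar1 and C5ar1. These 7 of the 32285 genes in the count tables were chosen by symbol, and each symbol pointed to 1 gene identifier. Cells came from mammary tumors of 8 mice, and the transcripts were counted as unique molecular identifiers (UMIs, 1 per captured RNA molecule) at the 3′ end. The tumors grew from E0771, a mouse mammary carcinoma line (the naive line, 2 mice, replicates 1 and 3), or from E0771-Res1 or E0771-Res2 (3 mice each), lines that the study derived from E0771 tumors that came back after paclitaxel and anti–PD-1. Each line is a single derivation, so a difference between lines is a difference between these derivations. Tumors were implanted orthotopically, taken on day 18, and sorted for live CD45+ cells before capture. The cells of each mouse carried an oligonucleotide tag, and the study states that tagged cells were pooled.

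Complement is a protein cascade that tags targets and calls in immune cells. C3 is the central component that all activation routes cleave. C2 and C4b supply the convertase of the classical and lectin routes, while factor B (Cfb) supplies that of the alternative route and properdin (Cfp) stabilises it. C3ar1 and C5ar1 encode the receptors for the anaphylatoxins C3a and C5a, small fragments released from C3 and C5. Macrophages are known to make several of these components themselves, in addition to the C1q chains encoded by C1qa, C1qb and C1qc.

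Of 11430 deposited cells, 10605 had 500 to 6000 genes and under 10% mitochondrial counts. Marker gates gave 2283 macrophages (at least 10 C1qa UMIs), 4708 monocytes, 434 dendritic cells and 1018 lymphoid cells, with 1746 cells left ungated and 415 holding markers of more than 1 class set aside as mixed. Markers that the gates did not use followed the names in the gated classes. The summed level of Adgre1, Apoe, Mrc1, Trem2 and Ms4a7 averaged 11547 CPM (UMIs scaled to a common total per sum of cells) in macrophages and 2814 in monocytes, and that of Ccr2, Fn1, Ly6c1 and Hp averaged 336 and 1013 CPM. Lck, Cd2, Il2rb, Ptprcap and Gzmb together reached 3461 CPM in lymphoid cells against 41.8 in macrophages, and Batf3, Irf8, H2-DMb2, Fscn1 and Ccl22 together reached 2219 CPM in dendritic cells against 302 in macrophages. Total counts ran from 5036667 to 18894504 UMIs per mouse, and macrophages had a median of 9944 to 11458 UMIs per cell in the E0771 and E0771-Res1 tumors and 6936.5 to 8766 in the E0771-Res2 tumors. The mice shared 0 cell barcodes, which does not show separate captures, since tagged cells were pooled. Levels below are CPM of the UMIs summed over all cells of a class in a mouse. Such 3′ UMIs do not scale with transcript length. How fully each gene was captured was not tested, so ranks of genes are ranks of counted UMIs.

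All 7 genes are protein coding and lie on the minus strand. In the GRCm38 annotation (GENCODE M21), C4b spans chr17:34728380-34743882, Cfb spans chr17:34856374-34862518, C2 spans chr17:34862604-34898265 and C3 spans chr17:57203970-57228136. The pair are neighbours in the same orientation, and in the direction of transcription C2 ends 86 bases before Cfb begins. Cfp lies at chrX:20925454-20931555, C3ar1 at chr6:122847138-122856161 and C5ar1 at chr7:16246743-16259540. The 250 bases upstream of the RefSeq start are shown for C3 and C3ar1, whose levels ran in opposite directions between monocytes and macrophages, and capitals mark the motif matches described after them. The C3 stretch is chr17:57228137-57228386 and the C3ar1 stretch chr6:122856158-122856407, both on the minus strand of GRCm38.p6.
C3: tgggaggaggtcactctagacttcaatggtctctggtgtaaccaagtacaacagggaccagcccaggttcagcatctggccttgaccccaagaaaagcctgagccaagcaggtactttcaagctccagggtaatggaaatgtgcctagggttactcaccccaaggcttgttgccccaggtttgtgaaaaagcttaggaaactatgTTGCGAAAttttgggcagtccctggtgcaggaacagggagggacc
C3ar1: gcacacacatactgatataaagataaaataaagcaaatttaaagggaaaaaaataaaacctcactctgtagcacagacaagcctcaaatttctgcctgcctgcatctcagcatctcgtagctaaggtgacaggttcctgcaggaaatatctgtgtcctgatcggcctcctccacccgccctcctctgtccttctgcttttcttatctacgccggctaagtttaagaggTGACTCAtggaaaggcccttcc
The motifs searched, on both strands, were TTCNNNGAA (GAS), TGANTCA (AP-1), GAGGAAGT (ETS/PU.1) and TTGCNNAA (C/EBP). The C3 window held 1 match, to the C/EBP letters, beginning 45 bases before the start. The C3ar1 window also held 1 match, to the AP-1 letters, beginning 22 bases before the start. Among 32851 promoters of the same length, 9.56% held the C/EBP letters and 6.75% the AP-1 letters, and 7.02% and 2.44% held the GAS and ETS/PU.1 letters. The windows of Cfp and C5ar1 held none of these letters.

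Macrophages carried more C3ar1, C5ar1, Cfp and C4b transcript than monocytes of the same tumors, and monocytes carried more C3. Of the 6 genes tested 5 were called (4 higher and 1 lower in macrophages, adjusted p under 0.05 in edgeR's quasi-likelihood test with mouse as a block), where 56.4% of all genes tested were called. The median log2 fold change of the 6 was 0.50, against 0.02 over all genes. C3ar1 differed most among the 5 well-detected genes, and Cfb did not pass the test.

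C3, the central component, averaged 171 ± 33.4 CPM in macrophages and 273 ± 18.8 CPM in monocytes (SD, n = 8 mice). Macrophage levels ran from 136 to 228 CPM with a median of 162, and monocyte levels from 250 to 303 CPM with a median of 268, so that the ranges did not overlap. In log2 terms C3 was lower in macrophages by a fold change of -0.83 (SE 0.07, adjusted p = 1.11e-08, edgeR) and was lower in 8 of 8 mice. Each cell was then thinned to 2500 UMIs. On average over mice, 26.1% of macrophages and 38.4% of monocytes held a C3 UMI, against 14.6% of lymphoid cells. Lymphoid cells are given for comparison, and the part of their level that came from outside the cell was not tested.

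Cfb averaged 325 ± 42.6 CPM in macrophages (lowest 268, median 328, highest 383) and 282 ± 43.7 CPM in monocytes (lowest 221, median 289, highest 332). Its CPM was higher in macrophages in 7 of 8 mice, and the ranges overlapped. The log2 fold change of 0.06 did not pass (SE 0.06, adjusted p = 0.389, edgeR). Properdin transcript was higher in macrophages in 8 of 8 mice. Cfp averaged 315 ± 63.0 CPM there (lowest 209, median 315, highest 414) and 203 ± 29.9 CPM in monocytes (lowest 164, median 197, highest 239), with a log2 fold change of 0.51 (SE 0.08, adjusted p = 1.61e-05).

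The C3a receptor gene C3ar1 was the most abundant of the 7 in macrophages, at 754 ± 147 CPM (lowest 557, median 772, highest 926). Monocytes held 314 ± 82.2 CPM (lowest 224, median 290, highest 463), and the ranges did not overlap. The log2 fold change was 1.13 (SE 0.07, adjusted p = 2.19e-10), a 2.19-fold difference. At 2500 UMIs per cell 69.6% of macrophages, 36.5% of monocytes and 20.8% of lymphoid cells held a C3ar1 UMI on average over mice. The C5a receptor gene C5ar1 was lower in level, with 174 ± 22.2 CPM in macrophages (lowest 146, median 168, highest 224) and 114 ± 23.7 CPM in monocytes (lowest 89.6, median 108, highest 168). It was higher in macrophages in 8 of 8 mice, with a log2 fold change of 0.49 (SE 0.06, adjusted p = 1.19e-06), although the ranges overlapped across mice.

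C4b and C2, the classical-route convertase components, were near the limit of detection. All macrophages together held 176 C4b UMIs, from 7 to 62 per mouse, and all monocytes 99, from 3 to 37 per mouse. C4b stood at 9.99 ± 4.09 CPM in macrophages and 3.57 ± 3.02 CPM in monocytes. It was higher in macrophages in 7 of 8 mice, with a log2 fold change of 1.32 (SE 0.33, adjusted p = 0.00212, edgeR). In the E0771 mice the 2 classes were close, at 9.98 and 9.89 CPM in replicate 1 and 8.12 and 6.16 CPM in replicate 3. In E0771-Res2 replicate 1 macrophages were lower (3.26 against 3.65 CPM). C2 gave 69 UMIs in macrophages and 41 in monocytes over all 8 mice and did not pass the low-count filter in either class. Its levels were 3.65 ± 1.69 and 1.39 ± 0.74 CPM. At 2500 UMIs per cell under 2% of the cells of each class held a UMI of either gene on average (1.68% of macrophages for C4b at the highest), so these values describe sums and not cells.

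**Figure D1:**
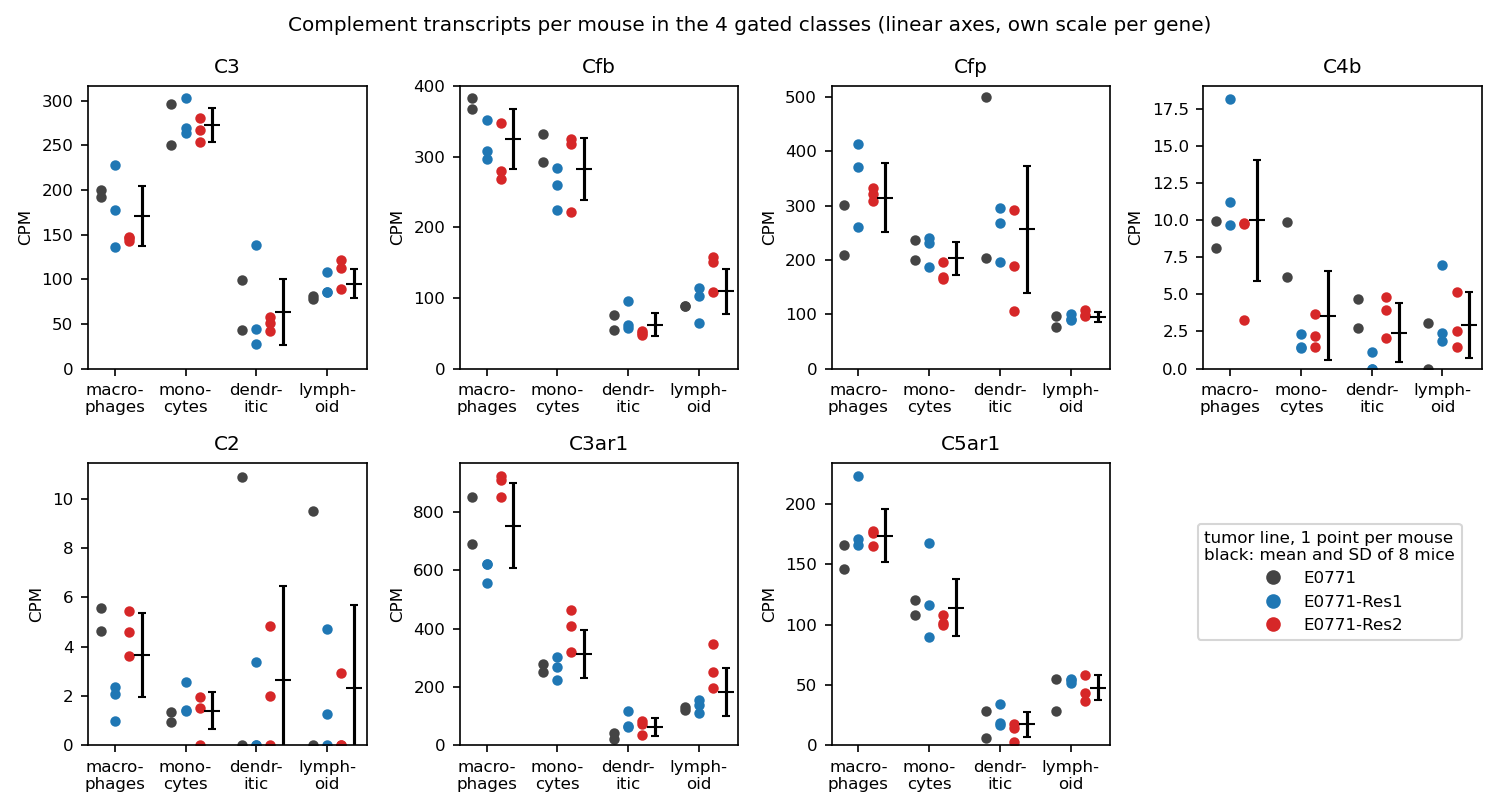
CPM of the 7 complement genes in macrophages, monocytes, dendritic cells and lymphoid cells, 1 point per mouse coloured by tumor line, with the mean and SD of 8 mice in black and a separate linear axis for each gene. C3 is highest in monocytes (250 to 303 CPM), C3ar1 is highest in macrophages (557 to 926 CPM), and of the 7 genes Cfp alone has a dendritic cell mean (256 CPM) more than 2 times its lymphoid mean (94.6 CPM).

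Dendritic cells held little C3, Cfb, C3ar1 and C5ar1 and kept a high level of Cfp. Of 5 genes tested 4 were lower in dendritic cells than in monocytes (44.6% of all genes were called), and the same number were lower than in macrophages (49.7% of all genes called). These were C3, Cfb, C3ar1 and C5ar1 each time. Their log2 fold changes against monocytes were -2.17 (SE 0.16) for C3, -2.24 (SE 0.12) for Cfb, -2.37 (SE 0.17) for C3ar1 and -2.81 (SE 0.19) for C5ar1, with adjusted p of 6.75e-11 or less in edgeR. Against macrophages the values were -1.39, -2.32, -3.50 and -3.34. The medians over the 5 genes were -2.24 and -2.32, against -0.02 over all genes in both comparisons.

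Cfp in dendritic cells ran from 107 to 499 CPM with a median of 236 and a mean of 256 ± 117 CPM. The range overlapped those of monocytes and macrophages, and the log2 fold change was 0.27 (SE 0.14, adjusted p = 0.115) against monocytes and -0.26 (SE 0.17, adjusted p = 0.209) against macrophages. Neither passed, and both depended on the settings. Without E0771-Res2 replicate 3, the mouse with the lowest value, Cfp was called higher than in monocytes (0.37, adjusted p = 0.0285), and without E0771 replicate 3, the mouse with the highest value, it was called lower than in macrophages (-0.46, adjusted p = 0.00314). With no low-count filter it was also called lower than in macrophages over all 8 mice (-0.32, adjusted p = 0.00563). That highest value rests on 29 dendritic cells. In 8 of 8 mice the dendritic level lay above the lymphoid level, whereas C3, Cfb, C3ar1 and C5ar1 lay above it in 2, 1, 1 and 0 of 8 mice.

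Lymphoid cells held low levels of all 5 well-detected genes, and all 5 of 5 tested were called lower than in macrophages (63.8% of all genes called; median log2 fold change -1.91, against 0.00 over all genes). Mean levels were 95.2 CPM for C3, 109 for Cfb, 94.6 for Cfp, 182 for C3ar1 and 47.7 for C5ar1. Lymphoid cells also held transcripts typical of macrophages, with C1qa at 191 CPM on average and C1qa, C1qb, C1qc, Apoe and Lyz2 together at 0.245 of their summed macrophage level (Lyz2 is shared with monocytes). The gates keep the C1q values low, since a lymphoid cell with 10 or more C1qa UMIs was set aside as mixed and macrophages were chosen for C1qa, so these values do not measure how much RNA was carried over. For the 5 complement genes the share of the macrophage level was 0.556 for C3, 0.335 for Cfb, 0.301 for Cfp, 0.241 for C3ar1 and 0.274 for C5ar1. The shares of the monocyte level were 0.349, 0.387, 0.466, 0.579 and 0.419. The part of RNA carried over from macrophages and monocytes in these values was not tested. In monocytes and macrophages C3, Cfb, Cfp, C3ar1 and C5ar1 exceeded the lymphoid level in 8 of 8 mice.

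**Figure D2:**
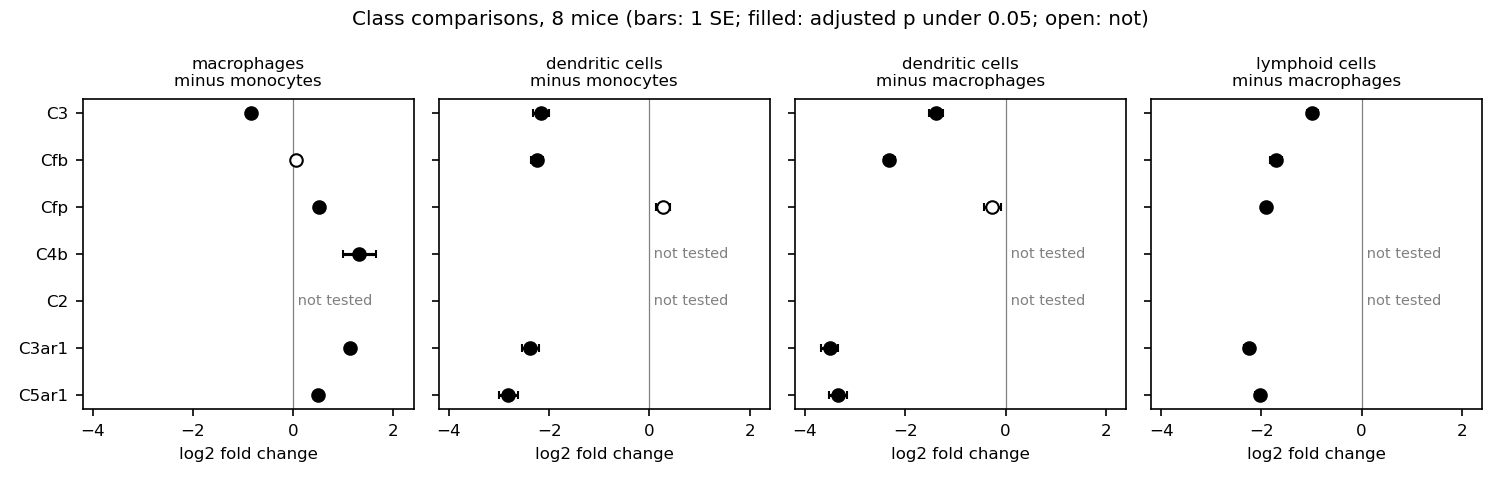
Log2 fold change (x axis) of each complement gene in 4 comparisons of cell classes over 8 mice, with bars of 1 SE, filled points for adjusted p under 0.05 and open points otherwise. C3 lies left of 0 and C3ar1 right of 0 for macrophages minus monocytes (-0.83 and 1.13), and Cfp is the open point in both dendritic comparisons (0.27 and -0.26).

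The wider pathway was read from a list of other complement genes, 36 once C1qa, which defined the macrophage gate, was set aside. Most were hardly detected. The 7 genes of the terminal pathway (Hc, C6, C7, C8a, C8b, C8g and C9, whose products build the membrane attack complex) gave 47 UMIs in all macrophages and monocytes together, and Cfd, the protease that activates factor B, gave 63. Between macrophages and monocytes 11 of the 36 were tested and all 11 were called, 10 higher and 1 lower in macrophages (56.4% of all genes called). Their median log2 fold change was 0.87, against 0.02 over all genes. The calls of C1qb and C1qc are not independent of the C1qa gate. The largest differences were those of C1qc (4.11) and C1qb (3.82), which are made together with the gate gene C1qa, and of C5ar2 (1.00), which encodes another C5a receptor. The lower gene was Itgb2, the integrin chain shared by complement receptors 3 and 4 (-0.20, adjusted p = 0.00679).

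In dendritic cells 1 of 9 other genes tested was higher than in monocytes (C1qbp, 0.84) and 5 were lower (44.6% of all genes called), with the largest differences for Cd93 (-2.28), Itgam (-1.89, the other chain of complement receptor 3) and Itgb2 (-1.44). Against macrophages 8 of 9 were lower in dendritic cells and 0 higher (49.7% of all genes called), led by C1qc (-5.03), C1qb (-4.93) and Cd93 (-2.91). In lymphoid cells 7 of 9 were lower than in macrophages (63.8% of all genes called), led by C1qc (-4.71), C1qb (-4.44) and Cd93 (-1.88). The medians of these 3 comparisons were -0.91, -1.27 and -1.58, against -0.02, -0.02 and 0.00 over all genes. Here too C1qb and C1qc are not independent of the C1qa gate.

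Genes whose levels ran most like each complement gene were listed by Pearson correlation of log2 CPM over 32 sums (8 mice in 4 classes). The sums share mice and fall into classes, so the values are descriptions. C3 ran with Carhsp1 (0.937), Il1rn (0.934) and Nadk (0.920). Cfb ran with Cd300c2 (0.970), Fcer1g (0.967) and Pik3ap1 (0.965), and Cfp with Erp29 (0.892), Cttnbp2nl (0.889) and Rnd3 (0.881). Of the receptors, C3ar1 ran with Tmem171 (0.964), Ms4a7 (0.959) and Ctsb (0.958), and C5ar1 with Pilra (0.956), Fcgr3 (0.951) and Ecm1 (0.942).

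Between tumor lines C3ar1 was called most often, higher in E0771-Res2 than in E0771-Res1 in both macrophages and monocytes. In macrophages it was called in E0771-Res2 against E0771-Res1, 1 of 6 genes tested (3.31% of all genes called). In monocytes it was called against E0771-Res1 (1 of 6, 5.13% of all genes called) and against E0771, where C4b was called as well (2 of 6, 5.67% of all genes called). The 2 comparisons with E0771-Res2 in each class share those mice.

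In macrophages C3ar1 stood at 691 and 854 CPM in the E0771 tumors, at 621, 623 and 557 CPM in the E0771-Res1 tumors and at 926, 853 and 910 CPM in the E0771-Res2 tumors. All 3 E0771-Res2 values lay above all 3 E0771-Res1 values, and the second E0771 mouse reached the lowest E0771-Res2 level. The group means were 600.2 ± 37.4 CPM for E0771-Res1 and 896 ± 38.2 CPM for E0771-Res2 (SD, n = 3 each). The log2 fold change was 0.59 (SE 0.10, adjusted p = 0.00391, edgeR). Against the E0771 mean of 772 ± 115 CPM (n = 2), the values were -0.39 (SE 0.11, adjusted p = 0.128, and 0.0299 with no low-count filter) for E0771-Res1 and 0.20 (SE 0.11, adjusted p = 0.402) for E0771-Res2.

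In monocytes C3ar1 stood at 277 and 249 CPM in the E0771 tumors, at 302, 267 and 224 CPM in the E0771-Res1 tumors and at 463, 319 and 410 CPM in the E0771-Res2 tumors. Every E0771-Res2 mouse lay above the other 5, by a narrow margin for its replicate 2. The log2 fold change was 0.59 (SE 0.15, adjusted p = 0.0255) against E0771 and 0.57 (SE 0.13, adjusted p = 0.0173) against E0771-Res1. These monocyte calls rest on few mice. Against E0771 the call was lost without E0771 replicate 1 (adjusted p = 0.167), E0771 replicate 3 (0.249), E0771-Res2 replicate 1 (0.0878) or E0771-Res2 replicate 3 (0.0854). Against E0771-Res1 it was lost without E0771-Res1 replicate 3 (0.0782), E0771-Res2 replicate 1 (0.0821) or E0771-Res2 replicate 3 (0.0730), and the fold change stayed above 0.44 in each case. With gates on thinned cells, which equalise depth for the gating, the call against E0771 was also lost (0.454, adjusted p = 0.0635).

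Other values moved with this line difference. In lymphoid cells E0771-Res2 was again highest, with C3ar1 at 132 and 121 CPM in the E0771 tumors, 155, 111 and 139 CPM in the E0771-Res1 tumors and 348, 197 and 253 CPM in the E0771-Res2 tumors. The 3 E0771-Res2 values lay above the other 5, and both E0771 values lay inside the E0771-Res1 range. Dendritic cells differed in this, with 21.7 and 42.4 CPM in E0771, 63.2 to 117 CPM in E0771-Res1 and 36.1 to 83.4 CPM in E0771-Res2. The E0771 values, of 8 and 9 UMIs, were lower than those of E0771-Res1, with a log2 fold change of 1.32 for E0771-Res1 minus E0771 that did not pass (SE 0.46, adjusted p = 0.834, edgeR, and 0.0107 unadjusted). C1qa itself was higher in E0771-Res2 monocytes, by 0.77 against E0771 (adjusted p = 0.00425) and 0.43 against E0771-Res1 (adjusted p = 0.0396). In monocytes with no C1qa UMI, a restriction added after the values were seen, the C3ar1 fold changes were 0.48 (adjusted p = 0.144) and 0.53 (adjusted p = 0.0568). Cells of the E0771-Res2 tumors also held fewer UMIs. Markers not used by the gates also differed between mice in monocytes. Ccr2, Fn1, Ly6c1 and Hp summed to 670 and 664 CPM in E0771-Res2 replicates 1 and 3. Replicate 2 had 1171 CPM, and the E0771 and E0771-Res1 mice had 939 to 1203 CPM. The macrophage markers named above summed to 3078 to 3473 CPM in E0771-Res2 monocytes and 2174 to 2899 CPM in the others. In macrophages Ccr2, Fn1, Ly6c1 and Hp summed to 204 to 321.6 CPM in E0771-Res2 and 321.7 to 489 CPM in E0771-Res1. The E0771 macrophages had 369 and 423 CPM. The macrophage markers summed there to 12303 to 13477 CPM in E0771-Res2, 9520 to 12865 CPM in E0771-Res1, and 9098 and 9101 CPM in E0771. The part of carried-over RNA, of depth and of the mix of cells in the gate in the C3ar1 difference was not tested. The summed neutrophil markers S100a8, S100a9, Csf3r, Retnlg, Mmp8 and Ly6g ran from 98.1 to 117 CPM in E0771-Res2 macrophages and from 70.2 to 88.8 CPM in E0771-Res1 macrophages. They stood at 74.9 and 105.5 CPM in the E0771 macrophages. Tumor and stromal markers (Krt8, Krt18, Col1a1, Col1a2, Col3a1 and Sparc) summed to 22.0 CPM at most in the macrophages of any mouse, and mast cell and basophil markers (Cpa3, Mcpt8, Tpsb2 and Gata2) to 1.38 CPM at most.

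**Figure D3:**
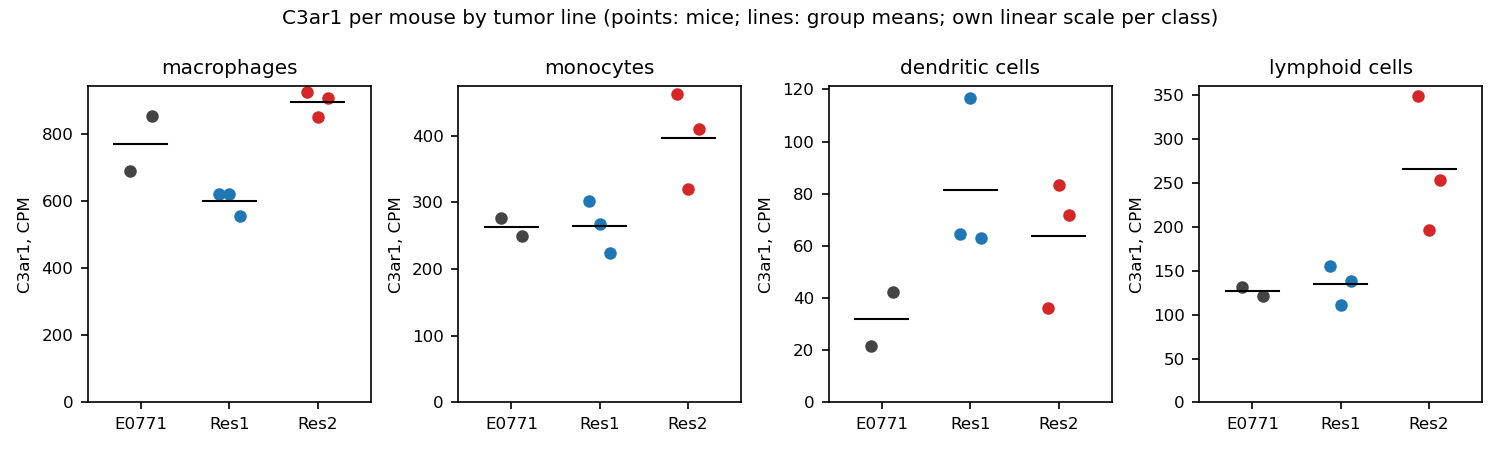
C3ar1 in CPM for each mouse by tumor line, in a panel for each cell class with its own linear axis from 0, where points are mice and black lines are group means. The 3 E0771-Res2 mice lie above the E0771-Res1 mice in macrophages, monocytes and lymphoid cells, and not in dendritic cells.

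C4b in monocytes was called lower in E0771-Res2 than in E0771 (log2 fold change -1.72, SE 0.39, adjusted p = 0.0154). The counts behind it were 37 and 13 UMIs in the E0771 mice, and 17, 5 and 9 UMIs in the E0771-Res2 mice, or 9.89 and 6.16 CPM against 3.65, 1.44 and 2.20 CPM. The groups did not overlap. In monocytes with no C1qa UMI the value was -1.97 and did not pass (adjusted p = 0.0672, edgeR), and DESeq2 gave no call of C4b. E0771-Res1 gave 11, 3 and 4 UMIs and a log2 fold change of -2.14 against E0771 that did not pass (SE 0.43, adjusted p = 0.113) but was called with no low-count filter (adjusted p = 0.000117). Without E0771 replicate 1 the E0771-Res2 value was -1.28 with adjusted p = 0.391, and without E0771-Res2 replicate 3 it was -1.64 with adjusted p = 0.0606.

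C3, Cfb, Cfp and C5ar1 did not pass in any line comparison as fitted here, and C2 was not tested there. C3 and Cfp passed in some under other settings, given beside their values or, for the replicate block, in the section on processing at the end. In macrophages C3 was at 192 and 199.5 CPM in the E0771 tumors, 178, 136 and 228 CPM in the E0771-Res1 tumors and 147, 146 and 143 CPM in the E0771-Res2 tumors. Both E0771 mice lay above the 3 E0771-Res2 mice, and the log2 fold change was -0.44 (SE 0.16, adjusted p = 0.192). C3 was called with no low-count filter (adjusted p = 0.0221) and without E0771-Res1 replicate 3 (0.0493). Macrophage Cfb stood at 383 and 368 CPM for E0771 against 280, 268 and 347 CPM for E0771-Res2 (-0.34, SE 0.13, adjusted p = 0.198). Cfp in monocytes of the E0771-Res1 tumors was at 239, 232 and 187 CPM. The E0771-Res2 monocytes held 169, 195 and 164 CPM of it (-0.34 between these lines, SE 0.11, adjusted p = 0.0912), with 1 value of each group inside the range of the other. This Cfp difference was called with no low-count filter (adjusted p = 0.0142), without E0771-Res1 replicate 3 (0.0388) and without E0771-Res2 replicate 2 (0.0446). Cfp in monocytes was also called in E0771-Res2 against E0771 with no low-count filter (-0.33, adjusted p = 0.0428). In macrophages Cfp was called in E0771-Res1 against E0771 with no low-count filter (0.42, adjusted p = 0.0303) and without E0771-Res1 replicate 3 (0.58, adjusted p = 0.0327). C5ar1 had log2 fold changes between -0.27 and 0.22 in the 6 comparisons of these 2 classes.

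In the comparison of E0771-Res1 with E0771, 0 of 6 genes were called in macrophages and 0 of 6 in monocytes, by edgeR and by DESeq2. The shares of all genes called by edgeR were 0.322% and 0.0307%. At an unadjusted p under 0.05 in edgeR stood 2 and 1 of the 6, against 1132 of 9020 and 845 of 9782 of all genes. For E0771-Res2 against E0771 in macrophages 0 of 6 were called by either tool (2.34% of all genes called by edgeR). Of these 6, 2 had an unadjusted p under 0.05 in edgeR, against 1390 of 9020 of all genes. Dendritic cells gave 0 of 5 called in each of the 3 line comparisons by either tool, where edgeR called 0%, 0.073% and 0.0548% of all genes. Unadjusted p lay under 0.05 in edgeR for 1, 2 and 0 of the 5, against 286, 418 and 348 of all 5477 genes. Dendritic cells numbered 20 to 101 per mouse. Among the 36 other complement genes, Itgb2 was lower in E0771-Res2 than in E0771 macrophages (-0.39, adjusted p = 0.0438, edgeR). It was 1 of 12 tested (2.34% of all genes called). In monocytes C1qb and C1qc were higher in E0771-Res2 than in E0771 (0.78 and 0.80). They were 2 of 11 tested (5.67% of all genes called). Against E0771-Res1, C1qc and Cd93 were higher in E0771-Res2 (0.52 and 0.57), again 2 of 11 tested (5.13% of all genes called). None of the others was called in these 6 comparisons. The monocyte gate sets an upper limit on C1qa, so the monocyte calls of C1qb and C1qc are not independent of it. Cells of the E0771-Res2 tumors held fewer UMIs, and the part of the gate in these monocyte calls was not tested.

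The size of the macrophage to monocyte difference was compared between the 3 lines with an interaction test. By edgeR and by DESeq2, 0 of 7 complement genes were called (0.241% of all genes called by edgeR). In edgeR 4 of the 7 had an unadjusted p under 0.05, against 760 of 9965 of all genes. Cfp had the smallest (adjusted p = 0.109). C3 was lower in macrophages than in monocytes in every mouse of each line, and C3ar1 was higher in every mouse.

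**Figure D4:**
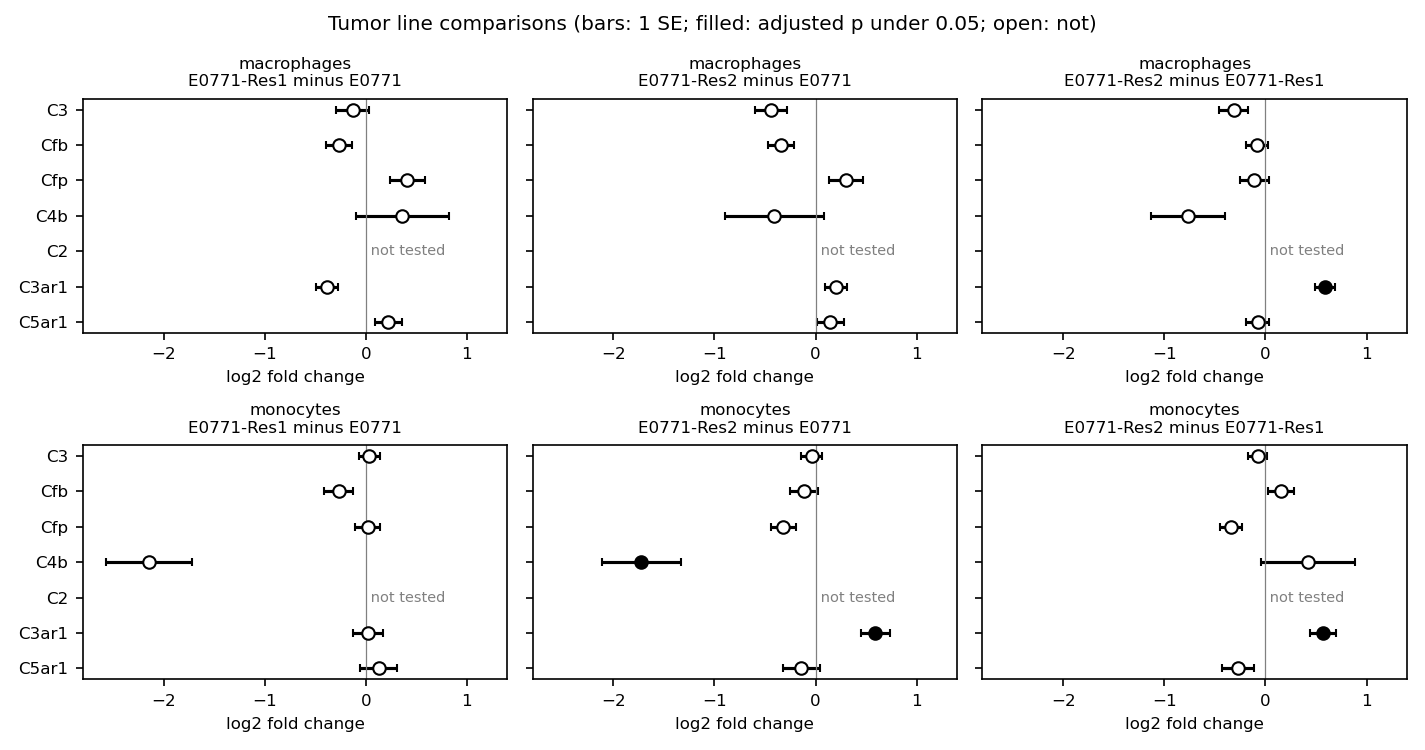
Log2 fold change (x axis) of each complement gene in the 3 tumor line comparisons, macrophages above and monocytes below, with bars of 1 SE, filled points for adjusted p under 0.05 and open points otherwise. C3ar1 is filled for E0771-Res2 minus E0771-Res1 in macrophages (0.59) and in both monocyte comparisons with E0771-Res2 (0.59 and 0.57), and C4b is filled once (-1.72).

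The genes were then set against the C1qa count of single cells at equal depth. Macrophages, monocytes and ungated cells with at least 2500 UMIs were thinned to 2500 UMIs and binned by C1qa at 0, 1 to 2, 3 to 5, 6 to 10 and over 10 UMIs, with 25 to 595 cells per bin and mouse. Cells over 10 are macrophages by the gate, and cells are not replicates, so the values are descriptions over 8 mice. C3ar1 stood at 66.9, 85.7, 136, 140.2 and 177 UMIs per 100 cells from the lowest to the highest bin, 2.64 times more in the last than in the first, and higher in 8 of 8 mice. C3 ran the other way, at 56.4, 58.8, 53.3, 38.3 and 33.9 UMIs per 100 cells, and was lower in the last bin in 7 of 8 mice.

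Between the end bins Cfp went from 40.5 to 59.5 UMIs per 100 cells (7 of 8 mice higher) with its peak of 68.1 at 6 to 10 C1qa UMIs. C5ar1 went from 23.3 to 33.7 (8 of 8 mice) and Cfb from 56.6 to 72.4 (7 of 8 mice). C4b was at 0.64 in the first bin and 3.72 in the last (8 of 8 mice), and most of this step fell between the last pair of bins (0.70 and 3.72). At 1500 UMIs per cell C4b was at 0.85 in the first bin, 1.25 at 6 to 10 and 1.69 over 10 (7 mice). The size of the last step thus depended on depth. C2 was at 0.29 and 1.37, and the values of both genes are a few UMIs per mouse. In cells with no C1qa UMI after thinning, C3ar1 stood at 62.0 and 55.4 UMIs per 100 cells for the E0771 mice. It stood at 56.8, 51.6 and 46.5 for those with E0771-Res1, and 104, 75.1 and 83.9 for those with E0771-Res2. The E0771-Res2 mice did not overlap the others, and these bins were not tested. In monocytes with no C1qa UMI before thinning, C3ar1 in E0771-Res2 did not pass against E0771 (adjusted p = 0.144, edgeR) or E0771-Res1 (0.0568).

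**Figure D5:**
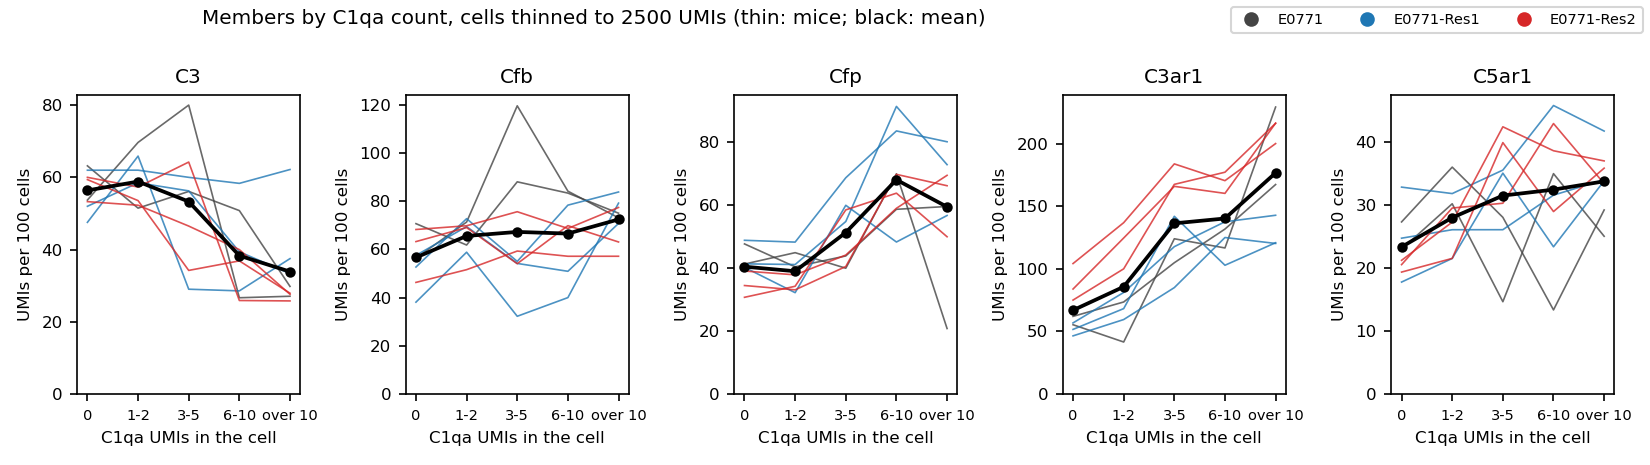
UMIs per 100 cells of 5 complement genes (y axis) by the number of C1qa UMIs in the cell (x axis, bins), with every cell thinned to 2500 UMIs, thin lines for mice coloured by tumor line and a black line for their mean. The mean of C3ar1 goes from 66.9 to 177 and that of C3 from 56.4 to 33.9.

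Within the macrophage gate the relation to C1qa was narrower. Macrophages were divided in each mouse at the median C1qa count after thinning, and the high and low sums were compared with mouse as a block. C3ar1 was higher in the C1qa-high cells (log2 fold change 0.28, SE 0.07, adjusted p = 0.0053, edgeR), a 1.21-fold difference, and was 1 of 5 genes called (7.8% of all genes called). The others stood at 0.18 (SE 0.09, adjusted p = 0.314) for Cfb, 0.04 (SE 0.11) for C5ar1, -0.07 (SE 0.09) for Cfp and -0.21 (SE 0.11, adjusted p = 0.336) for C3. With gates on thinned cells C3 was called lower as well (-0.37, adjusted p = 0.0313). With macrophages gated at 20 or more C1qa UMIs the C3ar1 value was 0.19 and did not pass (adjusted p = 0.191). Of the other complement genes 4 of 9 were higher in C1qa-high cells and 0 lower (7.8% of all genes called). Among the 4 were C1qc (1.02), C1qb (0.87) and Itgax (0.38, a chain of complement receptor 4). C1qb and C1qc are made together with C1qa, so their calls are not independent of a division by C1qa. Across single macrophages the Spearman correlation with C1qa averaged 0.08 for C3ar1 (-0.06 to 0.21 over 8 mice) and -0.02 for C3 (-0.08 to 0.11) at 2500 UMIs per cell. At 1500 UMIs the averages were 0.14 for C3ar1 (0.04 to 0.27, above 0 in every mouse) and -0.04 for C3 (-0.12 to 0.06). In counts this sparse correlations of this size are given as descriptions.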

How the data were processed

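Single cells of 8 CD45+-sorted mammary tumors were profiled with 10x 3′ chemistry and CellPlex tags. The authors deposited raw UMI counts, a gene-by-cell matrix from every mouse, made with Cell Ranger 6.1.2 per the file headers on mm10 per the submitters' notes, which also name Seurat; the gene annotation is not given in the sources used here. No value was normalized before deposit. Replicate 2 of E0771 was not analysed here.

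Cells with 500 to 6000 genes and under 10% mt- counts were kept (10605 of 11430) and gated on raw UMIs in a fixed order. Lymphoid cells had a sum of at least 3 over Cd3d, Cd3e, Cd3g, Trac, Trbc2, Nkg7, Ncr1, Klrb1c, Cd79a and Ms4a1, and dendritic cells a sum of at least 3 over Flt3, Zbtb46, Cd209a, Ccr7, Xcr1 and Clec9a. Macrophages had at least 10 C1qa UMIs, and monocytes had fewer and a sum of at least 5 over Ly6c2, Plac8, Chil3, Vcan and Ifitm6. Cells with markers of more than 1 class were set aside as likely doublets, no doublet caller was run, and tumor or stromal markers gated 1 cell.

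Counts were summed per mouse and class (at least 10 cells) without mt-, Rpl, Rps and Gm genes. edgeR 4.0.16 (TMM, filterByExpr, quasi-likelihood test; R 4.3.3) was fitted over all genes, with Benjamini-Hochberg adjustment over all genes tested and a call at adjusted p under 0.05. Line comparisons used 1 fit of the 3 groups per class; class comparisons and the C1qa division had the mouse as a block, since both sums come from the same tumor. SE is the log2 fold change divided by the root of its F value. Fold changes come from the fit and need not equal ratios of mean CPM. The scripts were tested on simulated data. Nothing in the labels says that mice of a group were handled separately beyond being separate animals. DESeq2 1.42.0 was an alternative, as were other size factors, no low-count filter, other gates, another depth and leaving out each mouse. Motifs were searched with Python 3.11.15. Genes, lists and tests were chosen with earlier results of these data known. Of the lists, 1 complement gene and 1 monocyte marker are not reported here. Named genes were the 7 members, up to 3 called genes per direction of the other complement list with an average log2 CPM of at least 3 (C1qa set aside), and the 3 genes most correlated with each member among those with an average log2 CPM of at least 4. Shares of cells with a UMI are means over mice of the share in each mouse, given without an error.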

Additional observations from a re-analysis of the deposited data

How the results depend on the processing

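Of the 23 calls of the 7 genes, 19 kept direction and call in all of their alternatives, and the direction of none reversed. Calls of the other complement genes were not followed under the alternatives. The exceptions were C3ar1 and C4b in monocytes and C3ar1 in the C1qa division. Counts of called genes in the 4 comparisons of classes stayed within 1.5 times. With no low-count filter the counts were 2 for E0771-Res1 against E0771 in macrophages, 1 for E0771-Res2 against E0771 in macrophages, 1 for E0771-Res1 against E0771 in monocytes (main value 0 each), 2 for E0771-Res2 against E0771-Res1 in monocytes (1), 2 for the interaction (0) and 2 for the C1qa division (1). Calls over all genes rose in these 6 comparisons too, from 29 to 396, 211 to 554, 3 to 148, 502 to 856, 24 to 242 and 267 to 284, with more genes tested. For E0771-Res2 against E0771 in monocytes the count of 2 became 1 under DESeq2 and with gates on thinned cells. With these gates C3ar1 was the gene lost, and under DESeq2 it was C4b. Monocytes with no C1qa UMI gave 0 for this comparison and 0 for E0771-Res2 against E0771-Res1. The C1qa division gave 2 calls with gates on thinned cells, 0 with C1qa of at least 20 and 0 without the mouse as a replicate block. Leaving out each mouse gave 0 to 1 calls for E0771-Res1 and for E0771-Res2 against E0771 in macrophages, and 0 to 2 for both monocyte comparisons with E0771-Res2.

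Same-numbered mice did not deviate together (r between -0.07 and 0.06), so replicate numbers are taken as names only. With the replicate block the E0771-Res2 to E0771-Res1 comparison in monocytes had 2 calls instead of 1. Cfp in monocytes passed under it for E0771-Res2 against E0771-Res1 (adjusted p = 0.0389) and against E0771 (0.0433), and for E0771-Res1 against E0771 was -0.042 instead of 0.018.

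Every reversal was of a log2 fold change that did not pass. In macrophages, E0771-Res1 minus E0771, C3 was 0.016 without the 5% of cells with most UMIs, 0.031 with C1qa of at least 20 and -0.30 to 0.026 with each mouse left out. For E0771-Res2 minus E0771, C4b ran from -0.73 to 0.065. For E0771-Res2 minus E0771-Res1, Cfb was 0.00 with gates on thinned cells (0.00177), C5ar1 ran from -0.16 to 0.043 and Cfp from -0.28 to 0.041. In monocytes, E0771-Res1 minus E0771, gates on thinned cells gave C3ar1 -0.10 and Cfp -0.01 (-0.00589), and monocytes with no C1qa UMI gave C3ar1 -0.052, C3 -0.027 and Cfp -0.01 (-0.0106). With each mouse left out C3ar1 ran from -0.076 to 0.13, C5ar1 from -0.14 to 0.31, C3 from -0.091 to 0.17 and Cfp from -0.11 to 0.16. For E0771-Res2 minus E0771, Cfb ran from -0.22 to 0.045 and C3 from -0.17 to 0.095. For E0771-Res2 minus E0771-Res1, C3 was 0.015 in monocytes with no C1qa UMI and C4b ran from -0.018 to 0.77. In the C1qa division C5ar1 was -0.14 with C1qa of at least 20, -0.12 with another thinning seed and -0.061 when divided by C1qb and C1qc. Cfp was 0.074 with gates on thinned cells, 0.11 at 1500 UMIs, 0.11 (0.107) with another seed and -0.14 to 0.01 with each mouse left out (-0.144 to 0.00822). The cause of these shifts was not tested.

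Over all genes the calls for E0771-Res2 against E0771 in monocytes went from 555 to 30 without E0771 replicate 1, to 150 without E0771 replicate 3 and to 238 without E0771-Res2 replicate 3. For E0771-Res2 against E0771-Res1 in macrophages they went from 299 to 113 without E0771-Res2 replicate 3. With 2 or 3 mice per line, C2 and C4b at a few UMIs per mouse and 20 to 101 dendritic cells per mouse set the limits of depth.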
